A study of Homo sapiens with 10 samples.

Results

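A group of 10 genes for cell-cell adhesion receptors of the immunoglobulin superfamily was examined in ARPE-19 cells, an established human RPE cell line, after 48 h in either of 2 media. The control group (n = 5) was kept in 5.5 mM glucose with 32 mM mannitol, a sugar alcohol added to hold the osmotic load of the control medium up, and the HG group (n = 5) in 37.5 mM glucose. Every library came from total RNA of this 1 line. Nothing in the labels says whether the libraries of a group came from separate cultures, so p-values measure the spread between these libraries, which may be technical. The genes were CADM1, CADM2, CADM3, CADM4, NECTIN1, NECTIN2, NECTIN3, NECTIN4, PVR and MDGA1, found by symbol in the table of read counts, and they make up 10 of its 22626 rows. These genes were chosen on the difference between the HG and control groups, which was already known when they were grouped. Their fold changes and calls in that comparison are therefore a description of the members and give no independent support to anything.

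Nectins and the related CADM proteins sit in the plasma membrane and hold neighbouring cells together by binding to the same protein, or to another family member, on the opposite cell. Nectins attach through the scaffold afadin to actin at adherens junctions, where they act with the cadherins, whereas CADM proteins attach through band 4.1 proteins and membrane-associated guanylate kinases. PVR, also known as CD155, is a nectin-like receptor that binds nectins and, together with NECTIN2, is recognised by receptors of lymphocytes. MDGA1 is held in the membrane by a glycosylphosphatidylinositol (GPI) anchor and is known from neurons, where it binds neuroligins and keeps them from binding neurexins. Such contacts matter in the RPE, a single sheet of cells whose junctions form the outer blood-retinal barrier.

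In GENCODE release 29 on GRCh38, CADM4 runs from 43622368 to 43639839 on the minus strand of chromosome 19, and PVR (44643798 to 44663583) and NECTIN2 (44846175 to 44889228) follow on the plus strand within 1.21 Mb of it. Chromosome 11 carries CADM1 (115169218 to 115504957) and, 4.12 Mb away, NECTIN1 (119623408 to 119729084), both on the minus strand. On chromosome 1, CADM3 (159171609 to 159203313, plus strand) and NECTIN4 (161070995 to 161089599, minus strand) are 1.87 Mb apart, and on chromosome 3, CADM2 (84958981 to 86074429) and NECTIN3 (111070071 to 111275563) are 25.0 Mb apart on the plus strand. MDGA1 stands alone on the minus strand of chromosome 6 (37630679 to 37699306). CADM4 and MDGA1 overlap no other annotated gene, while the other 8 overlap at least 1, mostly non-coding genes on the opposite strand, and whether the counting used strand is not given in the sources used here. Of the 100-base windows of each gene's longest coding transcript, 0.71% of those of PVR also occur in a transcript of CEACAM19, and none of those of the other 9 occur in a transcript of another gene.

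Sequences before the RefSeq start of 4 members called lower in the HG group are shown so that their make-up can be compared. They come from RefSeq (GRCh38.p14), read 5′ to 3′ on the strand of the gene, and hold the part of the 250 bases before the RefSeq start that lies in no GENCODE exon of the gene. Capitals mark GGGCGG, the box that Sp1 is known to bind, on either strand, and adjacent boxes may share a base. The lines cover chr19:43639851-43640100 for CADM4, chr6:37697991-37698133 for MDGA1, chr19:44846047-44846174 for NECTIN2 and chr19:44643660-44643797 for PVR. The MDGA1 line lies inside the GENCODE span of that gene given above, so it does not precede the annotated gene.
CADM4: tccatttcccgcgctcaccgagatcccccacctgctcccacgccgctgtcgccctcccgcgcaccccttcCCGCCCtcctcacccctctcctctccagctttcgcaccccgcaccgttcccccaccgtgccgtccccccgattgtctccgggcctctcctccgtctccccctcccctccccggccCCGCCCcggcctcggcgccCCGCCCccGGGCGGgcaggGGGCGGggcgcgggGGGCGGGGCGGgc
MDGA1: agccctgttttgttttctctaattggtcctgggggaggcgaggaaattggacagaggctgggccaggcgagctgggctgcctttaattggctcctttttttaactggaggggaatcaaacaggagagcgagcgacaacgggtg
NECTIN2: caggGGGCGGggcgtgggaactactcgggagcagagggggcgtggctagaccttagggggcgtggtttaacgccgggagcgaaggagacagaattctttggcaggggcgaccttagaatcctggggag
PVR: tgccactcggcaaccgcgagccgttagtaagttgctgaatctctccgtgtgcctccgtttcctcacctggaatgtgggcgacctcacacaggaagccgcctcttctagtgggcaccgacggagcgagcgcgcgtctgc

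Of the 10 members, 7 had a promoter in the RefSeq table. CADM4 had the window richest in GC, at 79.2% with 30 CpG dinucleotides in its 250 bases, against a median of 58.0% and 11 CpG over the 35116 promoters of the table. MDGA1 had 58.4% and 15. The box GGGCGG occurred 7 times in the window of CADM4, 5 times in that of NECTIN3, 3 times in that of NECTIN2 and 2 times in that of NECTIN4. These letters were not found in the windows of CADM3, PVR and MDGA1. The counts cover the whole 250 bases, and some of the NECTIN2 boxes lie in the part not printed above. The windows of NECTIN3 and MDGA1 lie inside the GENCODE spans of these genes. Over all promoters 42.6% held at least 1 such box. The E-box CACGTG, the core of the element through which glucose-sensing factors bind, was found in none of the 7 windows and in 6.3% of all promoters. These are matches of letters only.

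Total counts were between 32448991 and 45864176 per library. TXNIP, which glucose is known to induce, lay between 0.809 and 1.23 CPM (the count scaled to the normalised library size) in the control libraries and between 5.38 and 12.95 CPM in the HG libraries. Of the markers of the labelled cell type, MITF, OTX2, KRT8 and KRT18 were present (57.8, 96.2, 1864 and 1060 CPM in the control group), whereas TTR had no count, RPE65 had counts in 1 library only (6) and CDH1 reached at most 8 counts. BEST1 varied between 24 and 18223 counts within the control group. The leukocyte markers CD3E and AIF1 had no count and PTPRC at most 4, while CSF1R reached 326 counts and CD68 reached 5520. A trend with GC content set 2 libraries apart, HG_1 and control replicate 2, with slopes of 0.188 and 0.169 log2 units per 10 points of GC, against slopes between -0.0915 and -0.00504 in the other 8. The HG libraries are named by their column in the table, because the labels do not tie these columns to single samples. In whole cultures, fewer cells that make a transcript and less transcript per cell cannot be told apart.

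Most members that ARPE-19 cells expressed were lower in the HG group. The control mean of CADM4 was 2.25 times its HG mean, and the ratio was 1.71 for CADM1, 1.70 for MDGA1, 1.34 for NECTIN2 and 1.21 for PVR. Over the 14936 rows that passed edgeR's filter on low counts, 15.4% passed the adjusted p threshold of 0.05 in the quasi-likelihood test of edgeR, 7.8% lower and 7.62% higher in the HG group. Of the 10 members 8 were tested, of which 5 were called lower (CADM1, CADM4, NECTIN2, PVR and MDGA1), none was called higher, and CADM2, NECTIN1 and NECTIN3 were not called. CADM3 and NECTIN4 had too few counts to be tested. In 4 members (CADM1, CADM4, PVR and MDGA1) every HG library lay below every control library, as was the case for 6.91% of all rows tested.

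**Figure D1:**
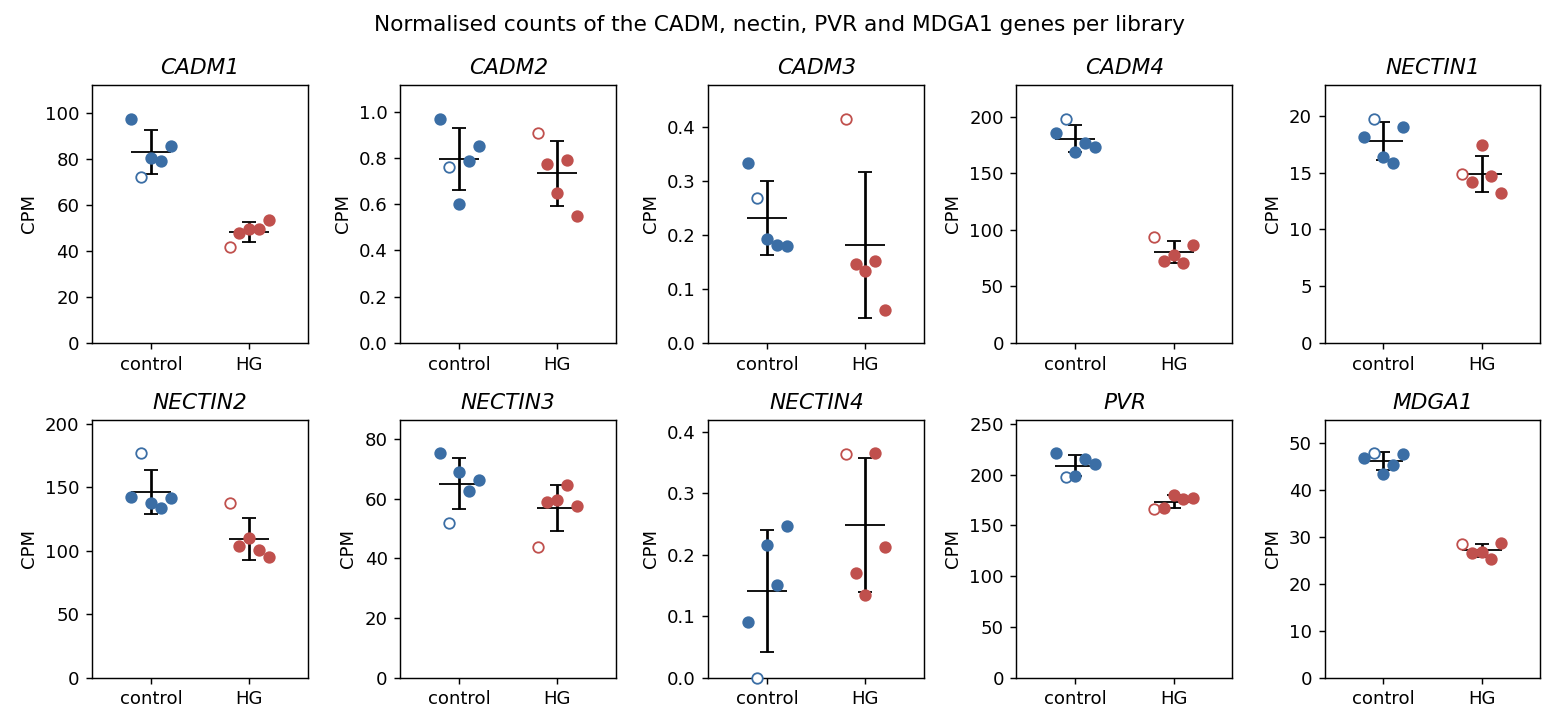
Normalised counts (CPM, y axis from 0) of each of the 10 genes in the 5 control and the 5 HG libraries. Each point is 1 library, open points are control replicate 2 and HG_1, and bars show the mean and SD. The HG points of CADM1, CADM4, PVR and MDGA1 all lie below the control points, and those of the other 6 genes overlap them.

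CADM4, the CADM protein known from the contact of Schwann cells with axons, had the log2 fold change furthest from 0 of the 8 tested members. Its normalised counts in control replicates 1 to 5 were 185.7, 198.4, 168.7, 176.4 and 173.4 CPM, and in HG_1 to HG_5 they were 93.5, 72.1, 78.2, 71.1 and 86.5 CPM. The lowest control library was thus well above the highest HG library. The means were 180.5 ± 11.8 and 80.3 ± 9.62 CPM (SD, n = 5 each), a log2 fold change of -1.17 (standard error 0.082). The reads behind these values were many, between 2338 and 8848 per library. Leaving out each library in turn gave log2 fold changes between -1.23 and -1.13.

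CADM1, a homophilic adhesion molecule first described as a tumour suppressor of lung cancer, held 97.6, 72.2, 80.5, 79.2 and 85.6 CPM in control replicates 1 to 5. In HG_1 to HG_5 it was at 41.8, 47.7, 49.5, 49.6 and 53.7 CPM. The groups did not overlap, and the lowest library of each group was one of the pair with the GC trend. The log2 fold change was -0.78 (standard error 0.0878), from 83.0 ± 9.46 to 48.4 ± 4.34 CPM. The transcript of CADM1 is poorer in GC than that of CADM4 (44.3% against 59.9%), and its value stayed at -0.77 without these 2 libraries and at -0.74 after the trend of each library on GC content and transcript length was removed.

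The remaining CADM genes were near the limit of detection. CADM2, best known from the brain, had between 18 and 38 counts per library, at 0.795 ± 0.135 CPM in the control group and 0.734 ± 0.140 CPM in the HG group (SD, n = 5 each). The values of the groups overlapped and the log2 fold change was -0.11 (standard error 0.214). CADM3, also known from neurons, had between 6 and 12 counts in the control libraries and between 2 and 16 in the HG libraries, of which 16 were in HG_1. No fold change is given for it.

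CADM4 held most of the CADM transcripts. On the FPKM scale, which is divided by length and can therefore be compared between genes, the summed level of the 4 CADM genes was between 80.8 and 89.7 in the control libraries and between 36.2 and 43.8 in the HG libraries. CADM4 made up 89.0 ± 1.47% of this sum in the control group and 85.5 ± 2.18% in the HG group (SD, n = 5 each). The summed level of the 4 nectins and PVR was 119.4 ± 4.16 FPKM in the control group and 94.4 ± 5.19 FPKM in the HG group, and its ranges (114.1 to 123.2 and 88.0 to 100.4) did not overlap either.

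NECTIN2, which binds to itself across cells and is a ligand of lymphocyte receptors, had the highest FPKM of the nectins. Its normalised counts were 142.4, 176.9, 137.5, 133.7 and 142.0 CPM in control replicates 1 to 5 and 137.9, 103.8, 109.9, 100.9 and 94.8 CPM in HG_1 to HG_5. The groups overlapped through HG_1 alone, whose value exceeded those of control replicates 3 and 4, and control replicate 2 stood above the rest of its group. Without these 2 libraries the ranges were 133.7 to 142.4 and 94.8 to 109.9 CPM. The log2 fold change was -0.42 (standard error 0.108) with all libraries and -0.44 without the pair. NECTIN2 was not called when HG_2, HG_3, HG_4 or HG_5 was left out, with log2 fold changes of -0.40, -0.42, -0.39 and -0.37, and it was called with the GC and length trend removed (-0.42, standard error 0.0433).

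PVR, the receptor through which poliovirus enters human cells, held 220.9, 197.7, 198.4, 215.3 and 210.7 CPM in control replicates 1 to 5. The HG libraries held 165.8, 167.0, 179.9, 175.8 and 177.3 CPM in the order HG_1 to HG_5. Its groups were narrow and did not overlap. The means were 208.6 ± 10.3 and 173.1 ± 6.35 CPM, and the log2 fold change of -0.27 (standard error 0.0456) was much smaller than that of CADM4.

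NECTIN3, which binds NECTIN1, NECTIN2 and PVR on opposite cells, had means of 65.1 ± 8.64 CPM (control) and 57.0 ± 7.74 CPM (HG). Its lowest library in each group was again one of the pair with the GC trend, at 52.0 CPM in control replicate 2 and 44.0 CPM in HG_1, and the other libraries lay between 62.6 and 75.3 CPM and between 57.4 and 64.6 CPM. The log2 fold change was -0.19 (standard error 0.115) and was not called. It was called once the GC and length trend was removed, at -0.21 (standard error 0.0568).

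NECTIN1, the entry receptor of herpes simplex virus, held between 15.8 and 19.8 CPM in the control libraries and between 13.2 and 17.4 CPM in the HG libraries. The groups overlapped through HG_3, the highest HG library, and the log2 fold change was -0.26 (standard error 0.0917), close to that of PVR but with a wider spread. Without HG_3 it was called, at -0.32, as it was with DESeq2. NECTIN4, a nectin of epithelial tumours and placenta, had between 0 and 11 counts in the control libraries and between 6 and 14 in the HG libraries, and the count of 0 in control replicate 2 allows up to 0.0673 CPM. NECTIN4 was too shallow to be tested.

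**Figure D2:**
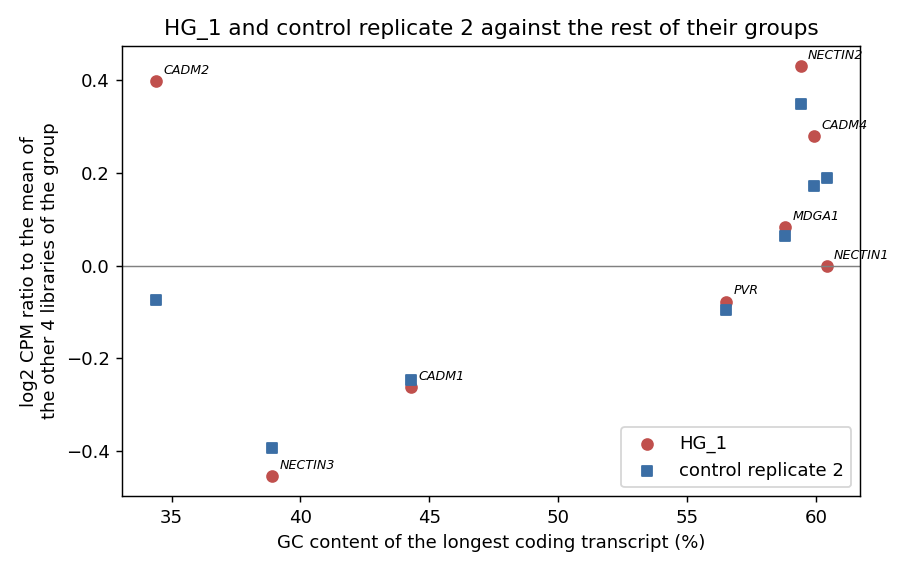
The 2 libraries with a GC trend, HG_1 (circles) and control replicate 2 (squares), against the other 4 libraries of their group, for the 8 tested members. The x axis is the GC content of the longest coding transcript and the y axis the log2 ratio of the CPM to the mean of the other 4. NECTIN3 (38.9% GC) lies at -0.45 and -0.39 and NECTIN2 (59.4% GC) at 0.43 and 0.35, while CADM2, with few counts, departs from the order at 0.40 in HG_1.

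In these 2 libraries NECTIN2 and CADM4, rich in GC, and NECTIN3 and CADM1, poorer in GC, lay on opposite sides of the rest of their groups. NECTIN2 was 0.43 log2 units above the other HG libraries in HG_1 and 0.35 above the other control libraries in control replicate 2, and CADM4 was 0.28 and 0.17 above. NECTIN3 was 0.45 and 0.39 below and CADM1 0.26 and 0.25 below. MDGA1 differed by 0.08 and 0.06 only. NECTIN1, with 60.4% GC, was 0.19 above in control replicate 2 but at -0.001 in HG_1, and PVR, with 56.5% GC, was at -0.08 in HG_1 and -0.10 in control replicate 2. The part of the trend in the members' values was not tested beyond the fits without these libraries and without the trend.

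MDGA1 had close replicates in both groups. It was at 46.8, 47.7, 43.3, 45.2 and 47.5 CPM in control replicates 1 to 5 and at 28.3, 26.5, 26.6, 25.3 and 28.6 CPM in HG_1 to HG_5. A wide gap separated the groups, from 28.6 to 43.3 CPM. The means were 46.1 ± 1.86 and 27.1 ± 1.39 CPM, a coefficient of variation of 4.04% and 5.14%, and the log2 fold change was -0.77 (standard error 0.0527). Removing the GC and length trend gave -0.67, and the deposited FPKM fell from a mean of 5.29 ± 0.217 to 3.33 ± 0.305. The FPKM of MDGA1 is no fixed multiple of its count: the transcript length that count and FPKM imply together was 7026 bases in HG_2 and between 8079 and 9436 bases in the other libraries, whereas for CADM4 it was between 2354 and 2376 bases in all 10.

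**Figure D3:**
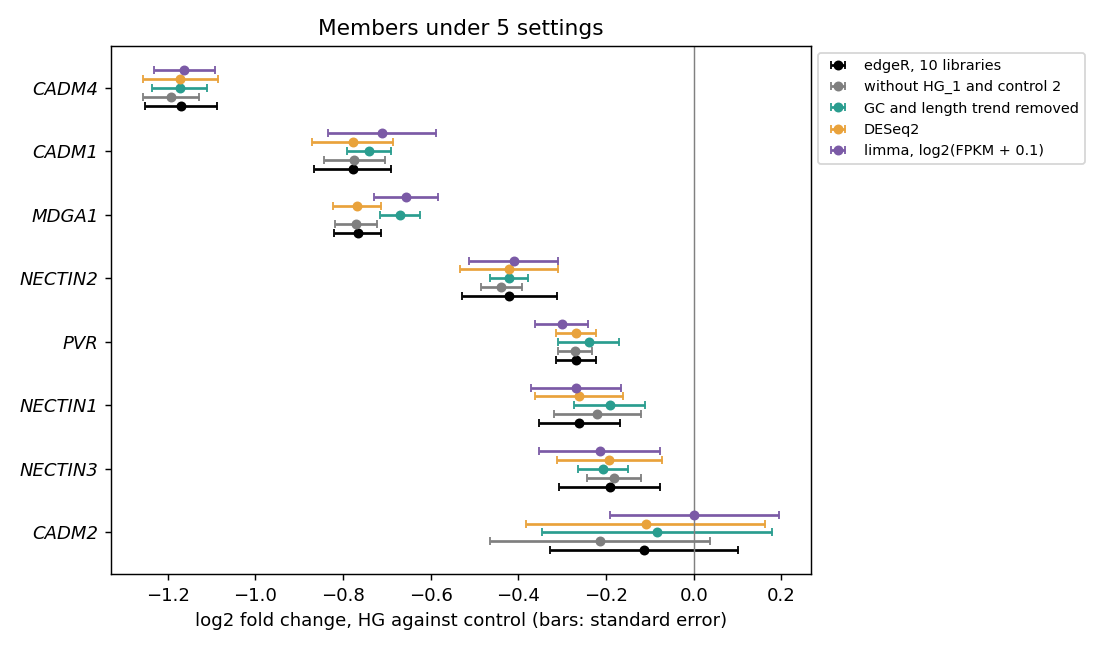
Log2 fold change of the HG against the control group for the 8 tested members (x axis) under 5 settings, with standard errors as bars. CADM4 lies between -1.19 and -1.16, apart from the others, CADM1 and MDGA1 between -0.78 and -0.66, and CADM2, with few counts, has the widest bars.

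The members can be ordered by their FPKM. In the control group CADM4 came first with 76.1 ± 3.99 FPKM, above NECTIN2 at 56.5 ± 5.70 and PVR at 47.8 ± 2.74 FPKM (SD, n = 5 each). The ranges of CADM4 and NECTIN2 did not overlap, while those of NECTIN2 and PVR did, although NECTIN2 was the higher in 5 of 5 libraries. In the HG group these 3 genes could not be ordered beyond their spread, with NECTIN2 at 42.7 ± 6.27, PVR at 38.8 ± 2.90 and CADM4 at 34.04 ± 3.44 FPKM. PVR exceeded CADM4 in 4 of 5 HG libraries. NECTIN3 followed in both groups (12.2 ± 1.86 and 10.5 ± 1.67 FPKM), then CADM1 (9.22 ± 1.24 and 5.61 ± 0.866), MDGA1 (5.29 and 3.33) and NECTIN1 (2.88 ± 0.295 and 2.38 ± 0.266). The control libraries of NECTIN3 and CADM1 overlapped and the HG libraries did not. CADM2, CADM3 and NECTIN4 stayed at or under 0.209 FPKM in every library, with overlapping ranges.

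**Figure D4:**
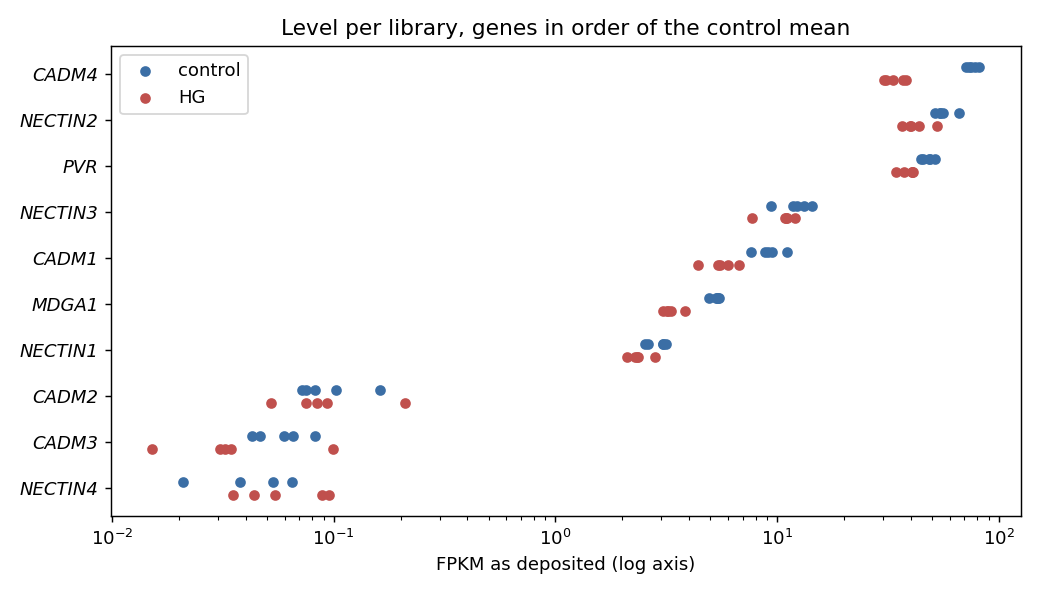
Deposited FPKM of the 10 genes on a log axis, 1 point per library, with the genes in the order of their control mean. CADM4 stands at 71.5 to 81.6 in the control libraries and at 30.5 to 38.2 in the HG libraries, and the value of 0 of NECTIN4 in control replicate 2 cannot be drawn.

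Over the 10 libraries, CADM4 and MDGA1 had similar profiles once scaled. Among 12364 rows with a gene symbol and a mean of at least 1 CPM, each profile of log2 CPM was set to mean 0 and SD 1 and the distance to CADM4 was taken. The nearest were MYL9, a light chain of myosin (distance 0.331), MDGA1 (0.346) and MYRF, a membrane-bound transcription factor (0.357). Nearest to MDGA1 were CADM4 (0.346), NPPB, the natriuretic peptide (0.381), and CCDC120 (0.386). All of these were lower in the HG group, with log2 fold changes of -1.30 (MYL9), -0.33 (MYRF), -2.16 (NPPB) and -0.43 (CCDC120). Such profiles share the libraries, the 2 groups and their depth, and the difference between the groups enters every such distance.

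On 8 partner lists stood 102 genes, for proteins that work with these receptors and for other adhesion proteins with immunoglobulin domains. Of these genes 85 were tested and 16 called in the HG against control comparison, 11 lower and 5 higher, where 15.4% of all tested rows were called. The median log2 fold change of the tested genes was -0.09, against 0.001 over all rows tested. Of these 16 genes, 10 were called in each of the 10 fits that left out 1 library, and 15 without HG_1 and control replicate 2 together. With limma on log2(FPKM + 0.1), EPB41L2, APH1B, CDH2, PLEKHA7, NFASC and CNTN1 were not called. The number called rose to 33 without these 2 libraries and to 37 with the GC and length trend removed, and over all rows it rose as well, from 2303 to 4035 and 3949.

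Among the cytoplasmic partners of nectins, 1 of 10 tested genes was lower and 1 higher (20% called, near the 15.4% of all tested rows, median -0.13). PARD3, the polarity protein that binds nectins, fell from 70.0 ± 3.17 to 55.6 ± 2.08 CPM (log2 fold change -0.33, adjusted p = 0.00113 by edgeR). PATJ, a scaffold of the Crumbs polarity complex, rose by 0.33 (adjusted p = 0.0239 from edgeR), a call lost without control replicate 3, HG_4 or HG_5. AFDN, which encodes afadin, was at 195.7 and 162.0 CPM and was not called (log2 fold change -0.27, standard error 0.115), and neither was MPDZ (83.6 and 73.8 CPM).

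Of the 12 cytoplasmic partners of CADM proteins, all tested, 1 was lower and 1 higher (16.7% called, median -0.11). EPB41L2, the band 4.1 protein that anchors CADM4 in Schwann cells, fell from 153.5 ± 14.3 to 119.3 ± 10.3 CPM (log2 fold change -0.36, adjusted p = 0.0102 from edgeR), a call lost with limma on log2(FPKM + 0.1). SDCBP, which encodes the PDZ protein syntenin, rose from 372.3 ± 23.5 to 451.1 ± 29.5 CPM (adjusted p = 0.00973 from edgeR). DLG1, a guanylate kinase scaffold, was at 216.4 and 196.2 CPM and was not called.

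The cadherins and catenins, with which nectins build adherens junctions, had 4 of 9 tested genes lower and none higher (44.4% called, against 15.4% of all tested rows, median -0.19), and 2 of these 4 calls, CDH2 and PLEKHA7, depended on single libraries. CDH11 fell by 0.65 on the log2 scale (adjusted p = 0.000836) and JUP, plakoglobin, by 0.55 (adjusted p = 0.00149, both from edgeR). CDH2, or N-cadherin, was at 467.2 ± 51.1 and 380.3 ± 30.1 CPM (log2 fold change -0.30, adjusted p = 0.0314 from edgeR), but it kept its call in 2 of the 10 fits with a library left out, those without control replicate 2 and without HG_1. PLEKHA7, which links junctions to microtubules, was lower by the same test (log2 fold change -0.26) and was called in 6 of these 10 fits, not in those without control replicate 1, 4 or 5 or without HG_3. The catenin CTNNA1 (440.7 and 425.7 CPM) and the actin-binding VCL (563.1 and 504.8 CPM) were not called.

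None of the 5 tested genes among neuroligins, neurexins and MDGA2 was called, against 15.4% of all tested rows (list median -0.38). The mean of MDGA2 was higher with HG, opposite to MDGA1, at 2.68 (control) and 4.03 CPM (HG). Its log2 fold change was 0.59 (standard error 0.191). NLGN1 hardly differed (0.03, standard error 0.135), and NLGN3 leaned lower with a wide spread (-0.51, standard error 0.416). NRXN3, a neurexin, was at 70.5 and 52.5 CPM (log2 fold change -0.43, standard error 0.135), and NLGN2, a neuroligin that MDGA1 is known to bind, at 32.3 and 24.8 CPM (-0.38, standard error 0.188). Of the lymphocyte receptors for these proteins, TIGIT and CD96 had at most 2 counts in a library. PVRIG, which binds NECTIN2, and CRTAM, which binds CADM1, had none, and only CD226 passed the filter and was not called.

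Among 28 tested genes for other adhesion proteins with immunoglobulin domains, 5 were lower and 1 higher (21.4% called, near the 15.4% of all tested rows, median -0.18). The lower ones were BCAM, a laminin receptor (log2 fold change -0.59), CNTN1 (-0.54), MCAM (-0.51), the junction molecule F11R (-0.29) and NFASC (-0.20), with adjusted p between 0.00121 and 0.0299 from edgeR. CLMP, a junction protein related to the coxsackievirus receptor, rose from 24.9 ± 4.03 to 41.4 ± 5.26 CPM (log2 fold change 0.73, adjusted p = 0.0029 from edgeR). CNTN1 was not called without control replicate 1, 3 or 5, HG_3 or HG_4, and NFASC only in 3 of the 10 fits that left out a library and not with the GC and length trend removed. BSG and ALCAM, the genes of this list with the highest normalised counts, were at 1349 and 1345 CPM and at 587.3 and 495.6 CPM, and neither was called.

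The last of these lists hold genes for enzymes that act on such receptors. Of 9 genes for proteases that shed or cut adhesion proteins and for subunits of gamma-secretase, 1 was called (11.1%, against 15.4% of all tested rows). It was APH1B, a non-catalytic subunit of gamma-secretase, which rose by 0.31 on the log2 scale (adjusted p = 0.0141 from edgeR) and was not called with limma on log2(FPKM + 0.1). APH1A (198.9 and 213.9 CPM) and NCSTN (190.3 and 198.7 CPM), of the same complex, were not called. ADAM10 was at 208.0 and 158.2 CPM and was not called (log2 fold change -0.39, standard error 0.128). Of 11 genes listed for attachment or remodelling of the GPI anchor on which MDGA1 depends, MPPE1 alone was called (9.09% of the list), higher by 0.48 (adjusted p = 0.0361 from edgeR). It was not called without HG_3, without any 1 of the 5 control replicates, or without HG_1 and control replicate 2 together. GPAA1 (163.8 and 172.2 CPM) and GDE1 (135.4 and 128.7 CPM), with high normalised counts on that list, were not called. GDE1 stands on the list but is not taken here to act on GPI anchors.

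**Figure D5:**
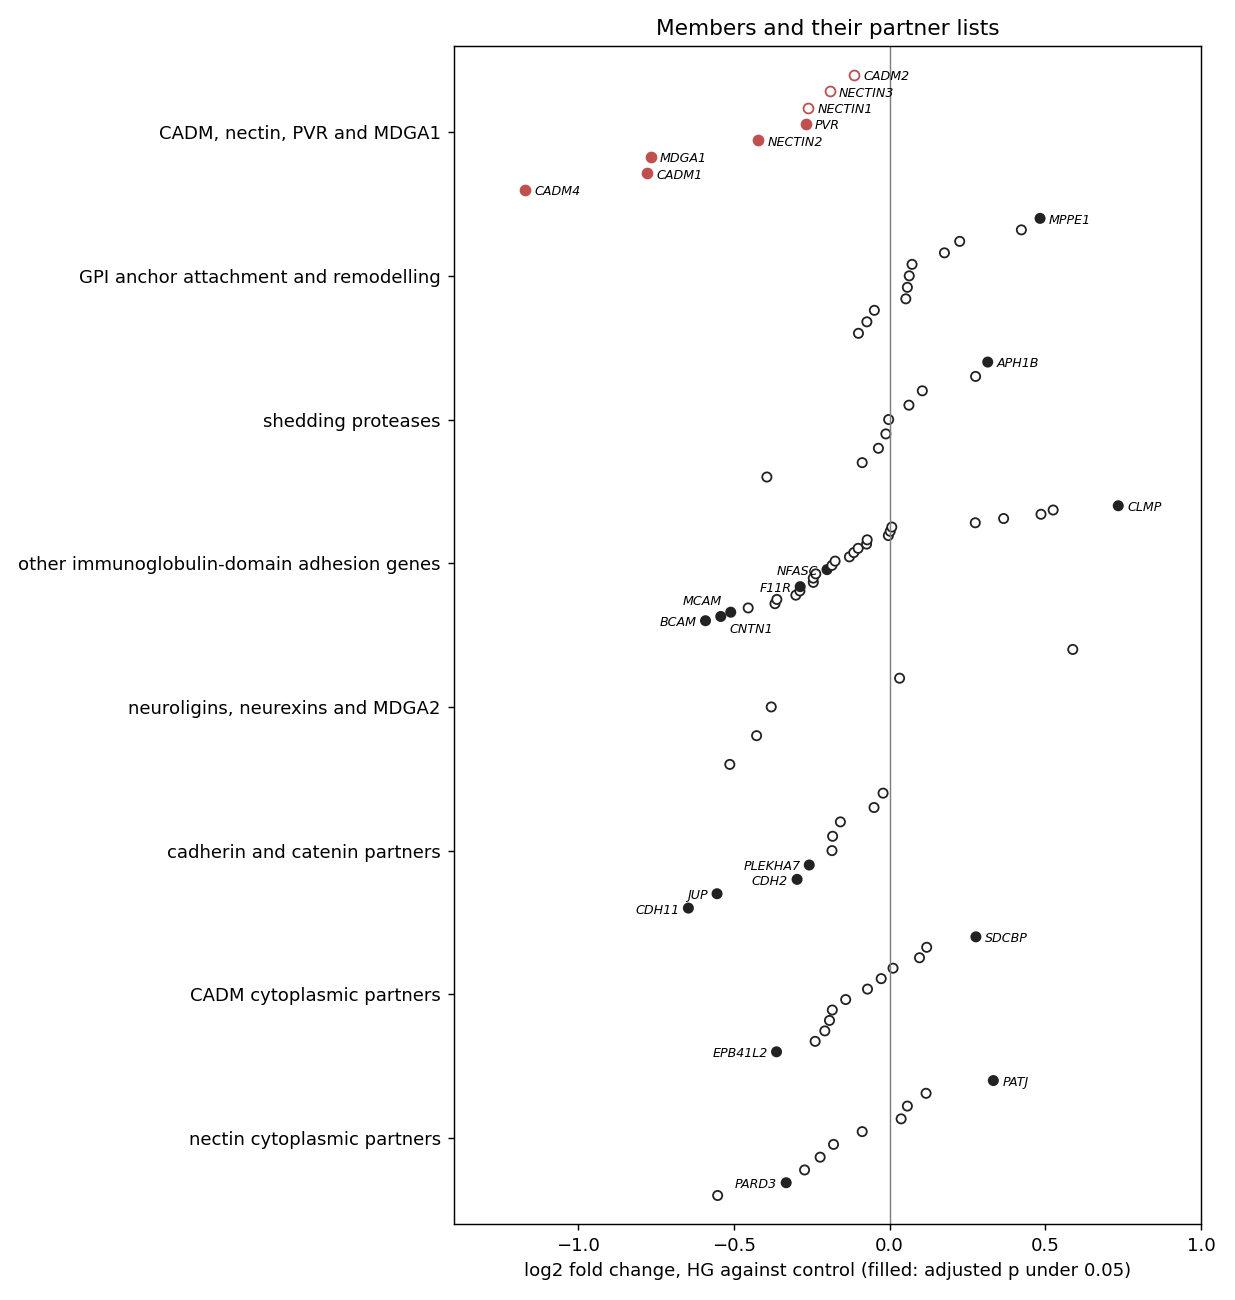
Log2 fold change of the HG against the control group (x axis) for the tested genes of 7 partner lists and, in red, for the 8 tested members. Filled points have an adjusted p under 0.05 and carry the gene name, as do all members. CADM4, a member chosen on this difference, lies further from 0 than any gene of these 7 lists, whose points lie between -0.65 and 0.73.

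Markers of cells other than RPE were examined in the same libraries. SOX10, which marks Schwann cells, had at most 1 count in a library, and of 10 neuron and Schwann cell markers, 5 of them tested, SYT1 was called (log2 fold change -0.37, adjusted p = 0.0217 from edgeR) and MAP2 and TUBB3 were not. The summed level of these 10 was 298.5 to 326.7 CPM in the control libraries and 302.8 to 317.4 CPM in the HG libraries. Among 10 fibroblast and mesenchymal markers, COL1A1 (45.3 to 18.1 CPM) and PDGFRB (176.8 to 102.7 CPM) were lower together with CADM4 and MDGA1, as was ACTA2 (62.8 to 52.9 CPM), while COL1A2, DCN, LUM and THY1 had at most 4 counts. Their summed level, mostly VIM, was 5777 to 6272 CPM in the control group and 5939 to 6935 CPM in the HG group. Of the 8 leukocyte markers CD68, a lysosomal protein, was higher (70.3 to 114.2 CPM) and CSF1R was not called. Their summed level was 60.7 to 88.9 CPM in the control group and 105.7 to 149.5 CPM in the HG group. Of the 6 endothelial markers KDR was lower (3.58 to 2.32 CPM) and VWF was not called, with sums of 3.22 to 5.42 and 2.44 to 3.22 CPM. Of the 14 RPE markers 10 were tested, and KRT8, KRT18 and PMEL were lower (log2 fold changes of -0.62, -0.68 and -0.72), while MITF, OTX2, RLBP1, TYRP1, SERPINF1, CDH3 and BEST1 were not called. The summed level of the RPE markers was 2833 to 3591 CPM in the control group and 1797 to 2471 CPM in the HG group, mostly KRT8 and KRT18 in both, and in single control libraries also BEST1. Of the tested markers, the called share was 30% for RPE (10 tested) and 20% for neuron and Schwann cell markers (5 tested). It was 75% for fibroblast and mesenchymal (4 tested), 50% for leukocyte (2 tested) and 50% for endothelial markers (2 tested). Over all tested rows it was 15.4%. The part of these markers in the values of the members was not tested.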

How the data were processed

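RNA of ARPE-19 cells was sequenced in 5 control and 5 HG libraries. The authors deposited raw read counts per gene and FPKM values (divided by length and depth) of the same libraries. The submitters' processing notes name fastp 0.20.1, HISAT2 2.2.1 and GRCh38, and the counting program and annotation are not given in the sources used here. The counts were compared with R 4.3.3 and edgeR 4.0.16 (default filter on low counts, TMM, quasi-likelihood test, Benjamini-Hochberg adjustment over all 14936 rows tested, calls at an adjusted p under 0.05). DESeq2 1.42.0 and limma 3.58.1 on log2 FPKM served as alternatives, and the steps were checked on simulated counts. In 1 alternative each library's lowess trend (span 0.3) on GC content and transcript length was removed.

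The members and lists were chosen with earlier results of these data known. All members are named. Of each list, up to 6 called genes, taken by the size of their log2 fold change, and the 2 tested genes of highest mean CPM were to be named, and other genes were named after their values were seen. A count of 0 allows 3 counts, between 0.0669 and 0.0912 CPM, which covers counting error only. Libraries of a group differed by more than sampling noise (chi-square per gene between 13.8 and 78.5).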

Additional observations from a re-analysis of the deposited data

Results flagged for a closer look

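Of 20 groups of 5 values (10 genes in 2 conditions), 2 had 1 library well apart from the rest, and chance alone sets about 1 group in 20 apart. NECTIN2 in control replicate 2 was at 176.9 CPM against 133.7 to 142.4 CPM in the other control libraries, and CADM3 in HG_1 was at 0.416 CPM, from 16 counts, against 0.0608 to 0.152 CPM in the other HG libraries. Both libraries are those with the GC trend; the part of that trend in these 2 values was not tested.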

How the results depend on the processing

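CADM1, CADM4, PVR and MDGA1 kept their direction and their call in all 21 alternatives run, with log2 fold changes of -0.82 to -0.63, -1.23 to -1.13, -0.30 to -0.24 and -0.79 to -0.54. The number of members called was 4 to 6. NECTIN2 was called in 17 of 21, NECTIN1 in 2 and NECTIN3 in 1, always lower. CADM2 was never called and reversed on FPKM, to 0.004 with a pseudocount of 1 and to 0.001 with 0.1. The partner genes called were 16 in the main fit, 24 with DESeq2 and 10 with limma on log2 FPKM under either pseudocount. They were 12 with limma on rows with a mean FPKM of at least 1. The number was 33 without HG_1 and control replicate 2 together and 37 with the GC and length trend removed. All rows called numbered 2303 in the main fit, 3147 with DESeq2, and 4035 and 3949 in the latter 2 fits. The GC-corrected fit had 13538 rows. The cause was not tested. Across the fits that left out 1 library the partner count ran from 11 to 24 and the count of all rows from 1648 to 2993. No paired analysis was possible because the labels number the control libraries and letter the HG libraries, and the columns of the latter are not tied to single samples. CADM3 and NECTIN4 were too shallow for any fold change.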
